A study of Mus musculus with 36 samples.

Results

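The rows of a mouse brain expression table that were annotated as micro RNA (miRNA) genes were described, as read in libraries of polyadenylated RNA. A row was taken where its mean over the 12 libraries of at least 1 brain region reached 1 RPKM (reads per kilobase of gene, scaled to the assigned reads of the library). This rule gave 179 of 1123 miRNA rows, or 15.9%, in a table of 31554 genes. Region means over sham and injured mice together chose the members, so their levels by region are a description and carry no test. The samples were adult male C57BL/6 mice that had sham surgery or spared nerve injury (SNI) of the sciatic nerve, and tissue was taken 2.5 months later. SNI cuts branches of the nerve and spares another, and is used as a model of lasting neuropathic pain. Tissue came from the prefrontal cortex (PFC), the nucleus accumbens (NAc) and the periaqueductal grey (PAG), and each was read in 6 sham and 6 SNI libraries, 36 in all, and no genotype or drug differed between groups. Libraries were made from pooled RNA, and the labels do not say which mice stand behind a library, so p-values measure the spread between libraries, which may be technical.

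A miRNA is cut from a long primary transcript, first in the nucleus to a hairpin and then in the cytoplasm to a mature strand that guides Argonaute proteins to target RNAs. Pairing at the seed, near the 5′ end of the mature strand, sets most targets. Mature miRNAs have no poly(A) tail, so a library of polyadenylated RNA holds fragments of primary transcripts and of host gene RNA that lie over the hairpin, not the mature strand. miR-132 is induced by neuronal activity through CREB, miR-219 promotes the maturation of oligodendrocytes, and miR-7 is abundant in neurons and neuroendocrine cells.

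A total of 127 members matched a RefSeq miRNA entry of build GRCm38.p6 by name. The mature strands of the genes on which the results turn are shown first, with the seed in capitals, since they define the families to which the rows belong.
mmu-miR-132-3p: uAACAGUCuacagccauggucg
mmu-miR-219a-5p: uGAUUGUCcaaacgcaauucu
mmu-miR-7a-5p: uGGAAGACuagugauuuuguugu
mmu-let-7c-5p: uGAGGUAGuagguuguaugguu
mmu-let-7b-5p: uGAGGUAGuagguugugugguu
mmu-let-7a-5p: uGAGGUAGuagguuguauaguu
mmu-miR-138-5p: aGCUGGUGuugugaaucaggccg
mmu-miR-27b-3p: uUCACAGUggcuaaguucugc
mmu-miR-208a-3p: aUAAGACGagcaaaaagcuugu
mmu-miR-208b-3p: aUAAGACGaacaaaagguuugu
The 3 let-7 strands shared the seed GAGGUAG, and the miR-208 pair shared UAAGACG. Over all members, 13 seeds were shared, by 21 members. Mir138-1 and Mir138-2 encode the same strand, miR-138-5p, from different chromosomes, 9 and 8.

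The hairpins are what the libraries could read, and those of Mir132, Mir219-2 and Mirlet7c-2, which were called in the PAG, and of Mir7-1 are shown with the annotated mature strands in capitals.
Mir132, chr11:75173682-75173747, plus strand: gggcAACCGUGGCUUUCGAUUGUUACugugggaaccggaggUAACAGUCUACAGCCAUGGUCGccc
Mir219-2, chr2:29845631-29845727, minus strand: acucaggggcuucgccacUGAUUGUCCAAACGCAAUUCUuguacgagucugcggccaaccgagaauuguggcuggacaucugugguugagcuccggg
Mirlet7c-2, chr15:85706603-85706697, plus strand: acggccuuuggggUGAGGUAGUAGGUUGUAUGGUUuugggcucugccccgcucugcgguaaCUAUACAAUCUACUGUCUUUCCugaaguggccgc
Mir7-1, chr13:58392779-58392886, minus strand: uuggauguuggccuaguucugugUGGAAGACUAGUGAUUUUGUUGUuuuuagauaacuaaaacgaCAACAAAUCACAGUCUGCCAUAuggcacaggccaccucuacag
The table gives Mir132 a length of 101 bases, more than the 66 of this locus. Mir132 lies in an intron of the non-coding gene 1700016P03Rik, Mir7-1 in an intron of Hnrnpk (an RNA-binding protein) and Mirlet7c-2 in an exon of the non-coding gene Lncppara. Mir219-2 lies outside other annotated host genes. Its locus is crossed on the other strand by Mir219b, which is not a row of the table, and the strand setting of the counting is not given in the sources used here. Whether reads of such a pair were told apart is therefore not known, and 10 members had an annotated miRNA gene across from them in this way.

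Reads behind each value could be recovered, since 100% of the RPKM values were whole reads within a tolerance of 0.001. Libraries held 27.6 to 64.9 M assigned reads, and the members took 0.00499% to 0.0153% of them. The region labels held for their marker genes: Drd2 was 73.5 to 112 RPKM in the NAc, Slc17a7 was 414 to 543 in the PFC and Slc17a6 was 96.7 to 124 in the PAG. Libraries also differed in how strongly level rose or fell with GC content, measured as a slope in log2 units per 10 points of GC. In the PAG this slope was -0.22 to -0.02 in sham libraries and 0.04 to 0.22 in SNI libraries, with no overlap. In the PFC, sham 13 and SNI 19 stood apart at -0.26 and -0.24, and the SNI results of the miRNA genes named in the PFC are given with and without them. NAc libraries held 1.59 to 178 RPKM of Slc17a7, a marker of cortical excitatory neurons, with sham 6 and SNI 7 the highest of their groups.

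The members were short, 54 to 139 bases with a median of 83, so 1 RPKM stood for only 2.29 to 5.38 reads of a member of median length. The median member had 8.5 reads per library in the NAc, 8.25 in the PFC and 4.5 in the PAG. Only 85 members reached 10 reads on average in a region, and 134 of 179 were under 10 reads in the PAG. At the limit, Mir412 at 1.01 RPKM in the NAc and mmu-mir-7037 at 1.01 in the PFC were just inside, and mmu-mir-6972 followed at 1.04. Gm26043 at 0.985 in the PFC, Mir1957 at 0.982 in the PAG and Gm22403 at 0.962 in the NAc were just outside.

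Most members lay within other genes. By the GENCODE M21 annotation, 97 were intronic and 33 exonic in a host on the same strand, 28 lay antisense to a gene and 20 were intergenic. Chromosome 12 held 22 members, and 3 of the 8 clusters of members within 10 kb were there. They lie in the imprinted Dlk1-Dio3 region, and their hosts include Rian and Mirg, non-coding RNAs expressed from the maternal allele. The largest cluster, at chr12:109735619-109747960, held Mir453, Mir154, Mir496, Mir541, Mir412, Mir369 and Mir3072.

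Mir5125, in an intron of the splicing coactivator Srrm2, had the highest mean over 36 libraries. Its level was 102 ± 24.4 RPKM in the NAc, 148 ± 45.3 in the PFC and 90.8 ± 18.9 in the PAG (SD, n = 12 each). Srrm2 itself was at 99.4, 117 and 103 RPKM, so the intronic row was read about as deeply per length as its host. The next row, the intergenic mmu-mir-6236, was uneven: 594 RPKM in PFC SNI 21 and 296 in NAc SNI 8, against a lowest library of 20.1. Mir186, in the splicing factor gene Zranb2, was at 28.4 ± 5.02 in the NAc, 33.9 ± 4.79 in the PFC and 24.3 ± 3.28 in the PAG.

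Others of the 10 highest rows lay in genes of neurons or in long non-coding RNAs. Gm25749 overlaps an exon of Gria2, an AMPA receptor subunit, and was at 24.1 ± 4.95 RPKM in the NAc, 27.5 ± 4.92 in the PFC and 15.8 ± 2.73 in the PAG. Mir421 and Mir374 sit side by side in Ftx, a non-coding RNA of the X inactivation centre, and were at 25.3 and 24.4 RPKM in the NAc, 24.7 and 24.6 in the PFC, and 16.7 and 15.3 in the PAG. The table's Mir374 row matched miR-374b in RefSeq. AC158997.1, in an intron of Gm44503, was at 31.6 ± 5.47 in the PFC and 15.8 ± 2.85 in the NAc, and its libraries in these regions did not overlap. The other rows among the 10 highest were Mir1188, in Rian, mmu-mir-7220, in Camk2a, and Mir344-2, in A330076H08Rik.

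Of the 179 members, 99 reached 1 RPKM in all 3 regions, 15 in the NAc alone, 25 in the PFC alone and 6 in the PAG alone. The median member was lower in the PAG, by a log2 difference in level of -0.32 against the NAc and -0.40 against the PFC, where the median of all genes was 0.04 and 0.09. These medians hold for members picked by their region means and are a description.

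Members whose libraries did not overlap between regions were few. All PAG libraries lay below all NAc libraries in 8 members, where 15.2% of all genes did so, and above them in 3, where 22.3% did. Against the PFC the counts were 9 below, with a background of 14.2%, and 2 above, with 25.7%. NAc libraries lay above all PFC libraries in 2 members (background 13.1%) and below in 3 (9.89%). These counts are a description, since region means chose the members.

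Mir208b had the largest log2 difference in level between NAc and PFC. It lies in an intron of Myh7, a cardiac and slow muscle myosin heavy chain, and was at 9.15 ± 2.55 RPKM in the NAc, range 5.81 to 13.8, against at most 0.518 in a PFC library and 1.09 in a PAG library. Myh7 had the same order at low levels, 3.14 RPKM in the NAc, 0.544 in the PFC and 0.733 in the PAG. Mir208a, of the same seed but within Myh6, did not share it: 2.66 ± 0.999 in the NAc, 2.77 ± 1.62 in the PFC and 4.18 ± 1.44 in the PAG. AC130815.1, antisense to Ppp1r2, was also highest in the NAc, at 10.1 ± 2.54 RPKM against 2.44 ± 0.902 in the PFC and 1.31 ± 0.554 in the PAG. mmu-mir-7056 lies in Ptpn5, the striatal-enriched phosphatase STEP, and followed it: 4.90 RPKM in the NAc, 1.89 in the PFC and 1.28 in the PAG, with Ptpn5 at 102, 35.9 and 25.8.

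Several rows were low in the PAG. Mir128-1, whose product is abundant in neurons, was at 5.66 ± 2.16 RPKM in the NAc and 8.12 ± 2.73 in the PFC, and at 0.301 ± 0.425 in the PAG, an average of 0.833 reads per library. Its host R3hdm1 was at 53.0, 78.3 and 25.2 RPKM, a smaller ratio. Mir221, an intergenic gene, was at 4.57 ± 1.56, 3.90 ± 2.0 and 0.435 ± 0.400 RPKM in NAc, PFC and PAG. mmu-mir-7220, in an intron of the synaptic kinase gene Camk2a, was at 18.8 and 28.3 RPKM in the NAc and PFC and at 1.49 in the PAG, with Camk2a at 304, 527 and 29.2. mmu-mir-6982, in the same gene, was at 4.33, 8.32 and 0.485 RPKM.

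Fewer rows were highest in the PAG. Mir5112 was at 8.44 ± 1.73 RPKM there, range 5.81 to 12.1, and at 0.602 ± 0.591 in the NAc and 0.550 ± 0.424 in the PFC. Mir135a-2, in the non-coding RNA Rmst, was at 2.69 ± 0.730 against 0.360 ± 0.314 and 0.591 ± 0.356, and Mir1251, in the same RNA, was at 1.08, 0.106 and 0.155 RPKM. Mir344f was at 2.23 in the PAG, 1.33 in the PFC and 0.362 in the NAc.

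Other rows were highest in the PFC. Gm23811, overlapping an exon of the AMPA receptor gene Gria4, was at 2.21 ± 0.553 RPKM in the PFC and 0.471 ± 0.187 in the NAc. mmu-mir-6999, in the lipid kinase gene Dgkz, was at 3.66 ± 0.823 in the PFC and 1.24 ± 0.537 in the NAc, and Dgkz was at 84.6 and 35.8 RPKM.

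**Figure D1:**
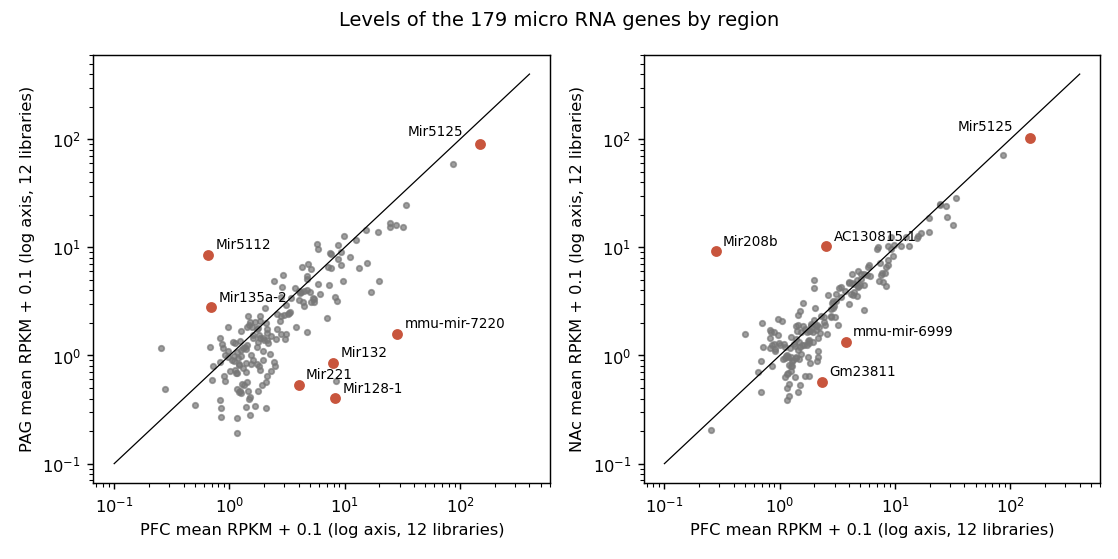
Mean RPKM of the 179 miRNA genes, plus 0.1, in the PFC (horizontal) against the PAG (left) and the NAc (right), on log axes, 12 libraries per region, with the line of equal level. Named points in red include Mir128-1 below the line in the PAG (0.301 RPKM) and Mir208b above it in the NAc (9.15 RPKM).

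SNI was compared with sham within each region on log2(RPKM + 0.5) with limma, a linear model with moderated errors, over every gene whose mean in the region reached 0.5 RPKM, and an adjusted p under 0.05 was called. Such fold changes understate those of low rows. In the PAG, 150 members were tested and 29 fell under the filter. Of the 150, 9 were higher after SNI and 2 lower, or 6.0% and 1.33%. Over all 15592 genes tested in the PAG, 21.5% were called higher and 13.7% lower, so the members' counts are no mark of the group. The median log2 difference was 0.03 over the members tested and -0.02 over all genes. Among members with at least 10 reads per library 6 of 45 were called, and among those with fewer 5 of 105. In bulk tissue, fewer cells of a type and less RNA per cell cannot be told apart.

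Mir219-2 had the largest difference on the log2(RPKM + 0.5) scale; by voom Mir132 at 2.54 and Gm22175 at 2.13 exceeded its 1.49. Sham libraries of the PAG held 1.93 RPKM at the lowest, 2.50 at the median and 3.74 at the highest, and SNI libraries 3.75, 8.53 and 13.4. Every SNI library lay above every sham library, though the lowest SNI and highest sham values nearly met. In reads this was 7 to 16 per sham library and 13 to 41 per SNI library. The log2 difference was 1.42 (SE 0.25, limma adjusted p = 7.2e-04). Summed over the groups, 58 and 164 reads gave a ratio of 3.07 per assigned read, with an exact 95% interval of 2.26 to 4.22 that covers counting error only.

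Some markers of the cell type in which miR-219 acts were also higher in the PAG after SNI. Of 12 genes of oligodendrocytes and myelin, all tested in the PAG, 5 were higher and 0 lower, against 21.5% and 13.7% of all genes. Mbp, myelin basic protein, had 228 ± 20.5 RPKM after sham surgery and 347 ± 40.1 after SNI (SD, n = 6 each), a log2 difference of 0.60 (SE 0.08, limma adjusted p = 9.7e-05). The other 4 were Mag, Cldn11, Myrf and Sox10, with log2 differences of 0.39 (SE 0.08, limma adjusted p = 0.00185), 0.45 (SE 0.07, 3.6e-04), 0.40 (SE 0.09, 0.0054) and 0.63 (SE 0.06, 4.9e-05). The summed level of the 12 genes was 1283 to 1474 RPKM in sham and 1373 to 1878 in SNI libraries, which overlap. Among SNI libraries, SNI 35, with the lowest sum, had 10.1 RPKM of Mir219-2, and SNI 34, with the highest, had 6.97. SNI 31, next to the highest in sum, had 10.7. The GC slope was highest in SNI 36, at 0.218, with 13.4 RPKM of Mir219-2, and lowest in SNI 33, at 0.036, with 3.75. Between them the order was not strict, since SNI 34, at 0.114, had less than SNI 35, at 0.095. Neither relation was tested among these libraries, and the part of the myelin genes in the Mir219-2 result was not tested.

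Mir132 was read little in the PAG. Sham libraries held 0 RPKM at the lowest and the median and 0.829 at the highest, and SNI libraries 0.680, 1.07 and 2.06, so the groups overlapped. In reads, 4 sham libraries held 0, the others 2 and 3, and the SNI libraries 2 to 8. A count of 0 allows up to 3 reads, or 0.674 to 0.840 RPKM in those 4 libraries, about the level of the lowest SNI library. The log2 difference was 1.36 (SE 0.28, limma adjusted p = 0.002). The group sums of 5 and 27 reads gave a ratio of 5.87, exact 95% interval 2.23 to 19.5. Mir132 had a sham mean under the filter of 0.5 RPKM, so it was tested in the PAG only through its SNI libraries. Its call and ratio are therefore a description. Of 9 genes induced by neuronal activity that were tested beside it, 3 were higher, Junb, Arc and Npas4, and 0 lower, against 21.5% and 13.7% of all genes. Their log2 differences were 0.55 (SE 0.15, limma adjusted p = 0.0132), 0.44 (SE 0.08, 0.00123) and 0.18 (SE 0.06, 0.0425). Btg2 of the same list had -0.26 (SE 0.13, limma adjusted p = 0.153) and Dusp1 -0.02 (SE 0.11, 0.913). The summed level of the 10 listed genes was 20.8 to 37.8 RPKM in sham and 26.4 to 48.3 in SNI libraries, and their part in the Mir132 result was not tested.

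Mir7-1 did not pass the test in the PAG, with 2.09 RPKM at the lowest, 2.64 at the median and 4.71 at the highest in sham and 2.22, 3.43 and 4.93 in SNI libraries. The groups overlapped throughout, and the log2 difference was 0.08 (SE 0.20, limma adjusted p = 0.78). With the GC slope of the library as a covariate it was 1.16 (SE 0.34, adjusted p = 0.512). The same covariate ended the calls of Mir219-2, at 0.16 (limma adjusted p = 0.931), and Mir132 (adjusted p = 0.659). Slopes of the PAG groups did not overlap, so the 1.16 is not read as an effect of SNI.

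**Figure D2:**
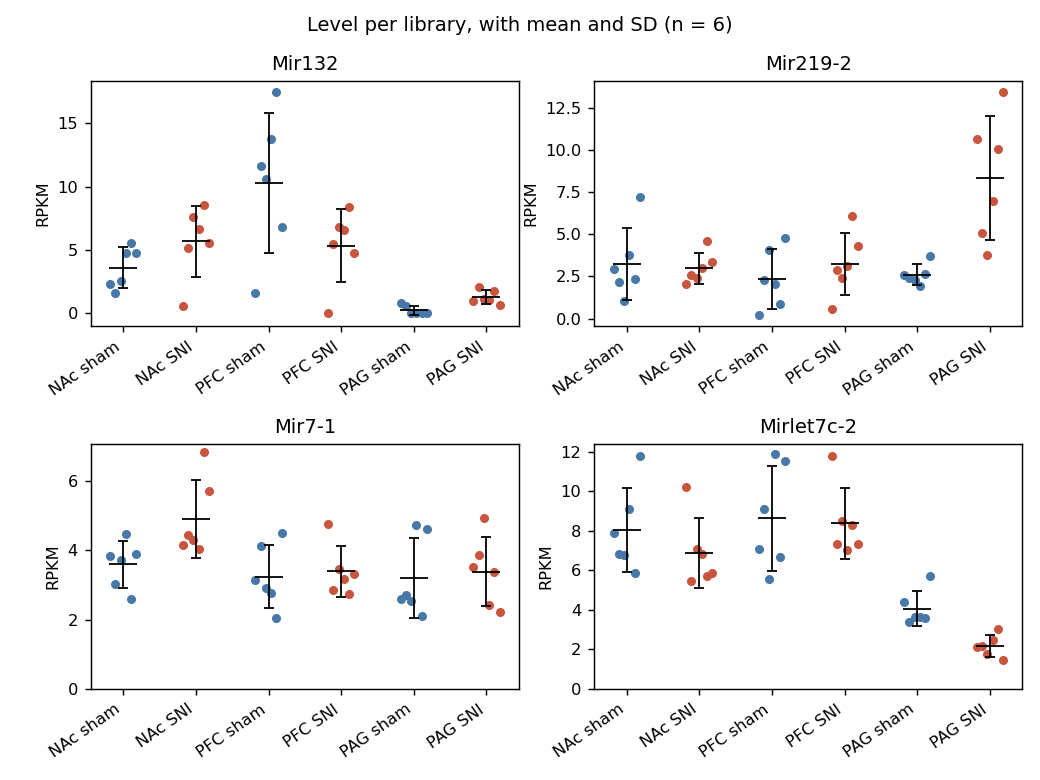
RPKM of Mir132, Mir219-2, Mir7-1 and Mirlet7c-2 in each of the 36 libraries by region and surgery (sham blue, SNI red), with the mean and SD of the 6 libraries of a group. Mir219-2 and Mirlet7c-2 have PAG groups that do not overlap, and PFC sham values of Mir132 spread from 1.57 to 17.4.

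Mirlet7c-2, a copy of the let-7 gene family that limits cell growth and marks differentiated cells, fell in the PAG. Sham libraries held 3.38 RPKM at the lowest, 3.67 at the median and 5.73 at the highest, and SNI libraries 1.44, 2.16 and 3.05. The groups did not overlap. The log2 difference was -0.78 (SE 0.14, limma adjusted p = 9.2e-04), from 11 to 24 reads per sham library and 4 to 9 per SNI library. It and Mir219-2 were the only tested members of the PAG whose groups did not overlap, 2 of 150, where 16.9% of all genes did not overlap.

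Its neighbour and seed mate Mirlet7b, less than 1 kb away in the same non-coding gene, did not fall. It was at 0.328, 1.30 and 1.87 RPKM in sham and 1.22, 1.91 and 2.67 in SNI libraries at the lowest, median and highest. The log2 difference of Mirlet7b was 0.53 (SE 0.21, limma adjusted p = 0.0635), opposite in sign to that of Mirlet7c-2. The third member with this seed, Mirlet7a-1, had -0.32 (SE 0.31, adjusted p = 0.435).

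The other called rows with at least 10 reads had smaller differences. Mir5125 was at 63.0, 75.9 and 95.1 RPKM in sham and 83.9, 108 and 122 in SNI libraries, a log2 difference of 0.45 (SE 0.10, limma adjusted p = 0.0041), with groups that overlapped. Mir1188, in Rian, was at 10.6, 11.4 and 13.3 RPKM in sham and 10.7, 16.4 and 20.8 in SNI libraries, a difference of 0.42 (SE 0.14, adjusted p = 0.0309). Mir27b, known in other tissues as a regulator of lipid metabolism and vessel growth, was at 2.62, 3.86 and 5.15 RPKM in sham and 3.36, 6.25 and 6.76 in SNI libraries, a difference of 0.52 (SE 0.16, adjusted p = 0.0234).

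Mir23b and Mir27b lie side by side on the plus strand, and Mir3074-1 follows on the minus strand across from Mir24-1, which is not a row. Mir3074-1 rose by 0.38 (SE 0.09, limma adjusted p = 0.0074), from 4.74, 6.00 and 8.24 RPKM in sham to 7.18, 8.13 and 8.66 in SNI libraries. Mir23b, at 3.27 ± 1.07 in sham and 3.5 ± 0.551 in SNI (SD, n = 6 each), had a difference of 0.13 (SE 0.16, limma adjusted p = 0.576) and was not called.

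The 4 remaining called rows had under 10 reads per library. Mir138-2, from which miR-138, a regulator of dendritic spine size, is made, was at 1.05, 1.44 and 1.98 RPKM in sham and 1.89, 2.85 and 3.62 in SNI libraries, a log2 difference of 0.73 (SE 0.15, limma adjusted p = 0.0023). Mir138-1, which encodes the same mature strand, had -0.03 (SE 0.29, adjusted p = 0.942). mmu-mir-7662 rose by 0.78 (SE 0.24, adjusted p = 0.0208) from 1 to 5 reads per sham library to 3 to 7 per SNI library. mmu-mir-6993 fell by 0.59 (SE 0.16, adjusted p = 0.0138) from 5 to 11 reads to 3 to 7. By voom its call and that of Mir1188 ended, at -0.64 (SE 0.26, adjusted p = 0.065) and 0.42 (SE 0.16, adjusted p = 0.0501).

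Gm22175, the fourth, had 1 read in all sham and 20 in all SNI libraries of the PAG. That ratio was 21.7 with an exact 95% interval of 3.48 to 901, and the log2 difference was 1.37 (SE 0.44, limma adjusted p = 0.0267). With so few sham reads, Gm22175 passed the filter of 0.5 RPKM only through its SNI libraries, so its call and ratio are a description. Its SNI libraries ran from 0 to 3.96 RPKM, and 5 of 6 lay above the sham median of 0.

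**Figure D3:**
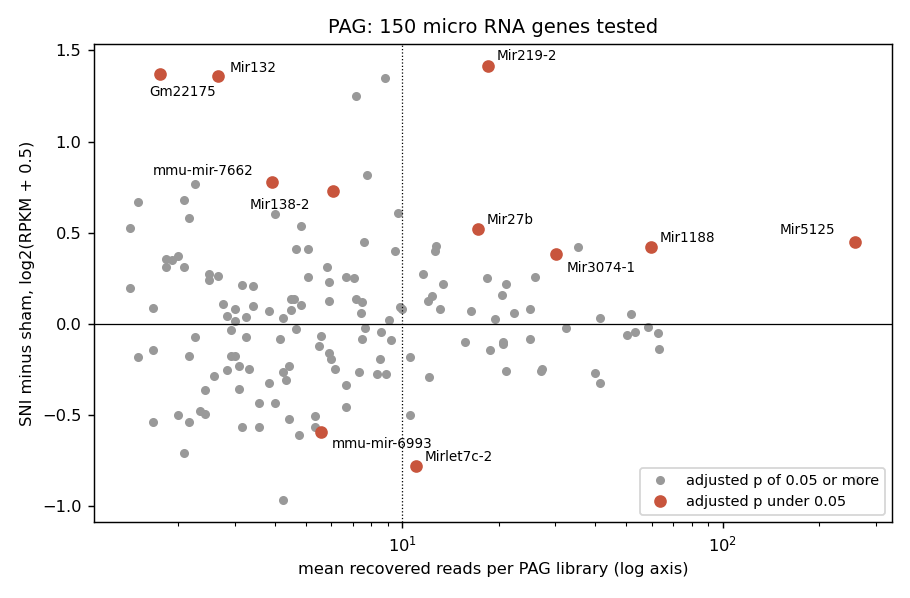
Log2 difference of SNI and sham in the PAG against mean recovered reads per PAG library (log axis) for the 150 miRNA genes tested, with the 11 called by limma at an adjusted p under 0.05 in red and a dotted line at 10 reads. Of the called genes, 6 lie to the right of the line and 5 to the left.

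GC content moved with the PAG results. Of the 11 called members, 10 had a GC content above 53.1%, the median of all members, and the GC content of the 11 ran from 47.9% to 66.7%. Members above that median had a median log2 difference of 0.12 (n = 71) and the rest -0.08 (n = 78). Over all genes split at the same GC content, the medians were 0.20 and -0.07. After removal of the GC trend the members' medians turned to -0.20 and 0.01, and those of all genes were -0.01 and -0.01. With the GC trend of each library removed, 3 members were higher and 4 lower, against 7.78% and 5.84% of all genes. Mir219-2 then had 1.23 (SE 0.24, limma adjusted p = 0.00435), Mir132 1.07 (SE 0.27, 0.0189), Mir27b 0.57 (SE 0.16, 0.0319), Mirlet7c-2 -0.88 (SE 0.14, 0.00163) and mmu-mir-6993 -0.76 (SE 0.17, 0.0103). The other 6 lost their call: Mir138-2 had 0.44 (SE 0.15, limma adjusted p = 0.0756), Mir5125 0.26 (SE 0.10, 0.114), Gm22175 0.71 (SE 0.41, 0.284), mmu-mir-7662 0.28 (SE 0.22, 0.451), Mir3074-1 0.09 (SE 0.11, 0.635) and Mir1188 -0.02 (SE 0.13, 0.951). With the GC slope as a covariate, 0 members and 0 of all genes were called. Slope and surgery cannot be told apart in the PAG, since the slopes of the groups did not overlap.

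Leaving out 1 PAG library at a time kept 8 of the 11 calls each time. Mir1188 was called in 6 of 12 such fits, Mir27b in 8 of 12 and Gm22175 in 9 of the 11 in which it passed the filter. The members called lower numbered 4 without sham 26, SNI 32, SNI 34 or SNI 35. The share of all genes called in those fits is not given here.

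**Figure D4:**
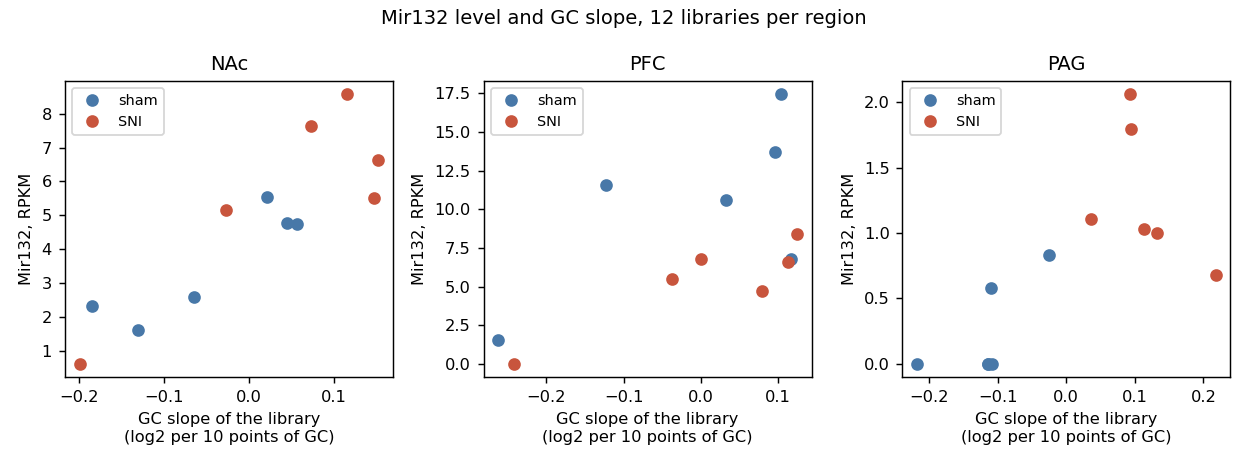
Mir132 level (RPKM) against the GC slope of each library (log2 per 10 points of GC) in the 3 regions, sham in blue and SNI in red, 12 libraries per panel. In the PAG the slopes of sham and SNI do not overlap, and the lowest Mir132 values of the PFC are those of the libraries with the lowest slopes.

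In the NAc and the PFC no member was called. In the NAc 170 members were tested. An unadjusted limma p under 0.05 was found for 16, 5 higher and 11 lower, where 4.32% of all genes had one, 0.825% higher and 3.5% lower. By voom on recovered reads it was 11 members, 2 higher and 9 lower, where 4.08% of all genes had one, 0.675% higher and 3.41% lower. In the PFC 176 were tested. An unadjusted limma p under 0.05 was found for 13, 5 higher and 8 lower, where 1.45% of all genes had one, 0.704% higher and 0.744% lower. By voom it was 9, 3 higher and 6 lower, where 1.35% had one, 0.658% higher and 0.691% lower. These shares were above the background in both regions, but most members had under 10 reads, and no member passed adjustment. No member of the PFC had groups that did not overlap, where 0.0856% of all genes did. Voom also called 0 in both regions, and no gene of any kind was called there by either tool.

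The 3 NAc members of smallest p were lower after SNI. Mir453 was at 7.04, 7.21 and 10.4 RPKM in sham and 5.34, 5.98 and 6.77 in SNI libraries, the only member whose NAc groups did not overlap, where 0.131% of all genes did not. Its log2 difference was -0.39 (SE 0.10, limma adjusted p = 0.78). Gm23572, antisense to the chloride transporter gene Clcn4, had -0.51 (SE 0.15) and mmu-mir-7664, in Nsmf, -0.71 (SE 0.22), with the same adjusted p. Mir496, which shares the seed GGUUGCC and the cluster with Mir453, had -0.31 (SE 0.14, adjusted p = 0.78).

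In the PFC, mmu-mir-8103 had -0.92 (SE 0.21), mmu-mir-8116, in the acetylcholinesterase gene Ache, 0.85 (SE 0.24) and Gm25301, antisense to Ppargc1b, -0.48 (SE 0.14), each with a limma adjusted p of 1.0. Without sham 13 and SNI 19 they had -1.15 (SE 0.19, adjusted p = 0.988), 0.74 (SE 0.26, 1.0) and -0.60 (SE 0.11, 1.0). Their groups overlapped, and they rested on means of 4.5 to 8.5 reads per library in the region.

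Mir132 was higher in these regions than in the PAG and varied widely. In the NAc it was at 1.61, 3.67 and 5.54 RPKM in sham and 0.611, 6.07 and 8.57 in SNI libraries at the lowest, median and highest. The log2 difference was 0.45 (SE 0.46, limma adjusted p = 0.788), and the groups overlapped. It ran from 0.28 without sham 2 to 0.90 without SNI 7. Without sham 6 and SNI 7, a pair chosen after seeing the data, it was 0.99 (SE 0.27, limma adjusted p = 0.134). SNI 7 had the lowest GC slope of the NAc, at -0.20, and with the slope as a covariate Mir132 had a difference of -0.13. In the PFC it was at 1.57, 11.1 and 17.4 RPKM in sham and 0, 6.05 and 8.4 in SNI libraries, a difference of -1.03 (SE 0.69, adjusted p = 1.0) with 6 of 6 SNI libraries below the sham median. The lowest values of the PFC were those of sham 13 and SNI 19, the libraries of lowest GC slope. Without both, the difference was -0.82 (SE 0.21, unadjusted p = 0.0027, adjusted p = 1.0). Without sham 13 alone it was -1.45 and without SNI 19 alone -0.40, so single libraries set its size.

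Mir219-2 was at 1.03, 2.64 and 7.21 RPKM in sham and 2.07, 2.78 and 4.62 in SNI libraries of the NAc, a difference of 0.04 (SE 0.31, limma adjusted p = 0.967). In the PFC it was at 0.205, 2.17 and 4.80 RPKM in sham and 0.568, 3.00 and 6.10 in SNI libraries, a difference of 0.48 (SE 0.51, adjusted p = 1.0). PFC libraries also differed widely in myelin genes, from 250.3 to 1213 RPKM summed over the 12. SNI 19 had both the lowest sum and the lowest Mir219-2 value of its group, 0.568, and SNI 20, with the highest sum, had 2.87 RPKM. Sham 17, with the lowest sham sum, had 0.851 RPKM, and sham 15, with the highest sham sum, had 4.08. The lowest sham value of Mir219-2, 0.205, was that of sham 13. The relation of Mir219-2 to the myelin genes was not tested. Without sham 13 and SNI 19 the PFC difference of Mir219-2 was 0.46 (SE 0.35, adjusted p = 1.0), without sham 13 alone 0.14 and without SNI 19 alone 0.80. Mir7-1 in the NAc was at 2.59, 3.78 and 4.47 RPKM in sham and 4.02, 4.36 and 6.82 in SNI libraries. All 6 SNI libraries lay above the sham median, and the difference of 0.40 (SE 0.14, unadjusted p = 0.0135) had an adjusted p of 0.78. In the PFC Mir7-1 had 0.08 (SE 0.16, adjusted p = 1.0), and without sham 13 and SNI 19 -0.02.

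No member's SNI effect was shown to differ between regions. Over 178 members tested in 1 model of all libraries, 0 had an adjusted p under 0.05 for PAG minus NAc, PAG minus PFC or NAc minus PFC. Unadjusted p-values under 0.05 numbered 21, 18 and 6, where 8.98%, 17.8% and 1.14% of all genes had one. Mir219-2 had a difference of effects of 1.37 (SE 0.57, limma adjusted p = 0.525) for PAG minus NAc and 0.93 (SE 0.57, 0.373) for PAG minus PFC. Mir132 had 2.39 (SE 0.77, adjusted p = 0.212) for PAG minus PFC and Mirlet7c-2 had -0.77 (SE 0.25, 0.215). Without PFC sham 13, 6 members passed for PAG minus PFC: Mir132, Gm22175, Gm25301, Gm23564, mmu-mir-8103 and mmu-mir-8116. The share of all genes that passed in that fit is not given here, so the count is not read as a result about the members. Mir132 then had 2.81 (SE 0.73, adjusted p = 0.0358).

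Host genes were set beside the members. A host on the same strand with a row of its own was found for 111 members, 99 different genes. The median ratio of member to host level per length was 0.167 in the NAc, 0.202 in the PFC and 0.170 in the PAG. In 21, 23 and 17 pairs the member was read more deeply than its host. Mir3074-1 had the highest such ratio of the NAc, at 12.6 RPKM in the NAc against 1.24 of Fancc, a DNA repair gene, though Mir24-1 and 2010111I01Rik lie across from it.

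Of 96 different hosts tested in the PAG, 37 were higher and 14 lower after SNI, where 21.5% and 13.7% of all genes were. In 86 pairs with both tested, 46 had the same sign. In 45 pairs the host was called and the member was not. A single pair was called in the same direction in both, mmu-mir-7662 with its exonic host Tspan15, whose log2 difference was 0.20 (SE 0.04, limma adjusted p = 0.0034). Hosts of the other called members were not called where they had a row. 1700016P03Rik, host of Mir132, had -0.23 (SE 0.26, adjusted p = 0.526), Srrm2 0.07 (SE 0.07, 0.439), Rian -0.09 (SE 0.04, 0.115) and Fads1, host of mmu-mir-6993, -0.02 (SE 0.04, 0.649). Hnrnpk, host of Mir7-1, had -0.11 (SE 0.04, adjusted p = 0.0666).

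**Figure D5:**
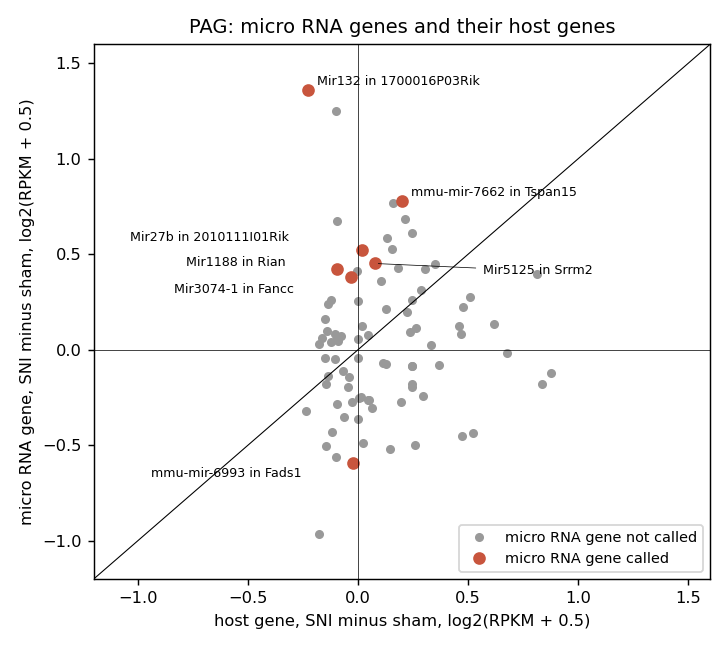
Log2 difference of SNI and sham in the PAG for 86 pairs of host gene (horizontal) and miRNA gene (vertical), with the line of equal difference and the called miRNA genes in red. The red points lie near a host difference of 0, between -0.23 (1700016P03Rik) and 0.20 (Tspan15).

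Relatives of the marker genes fell under the limit. Mir212, which shares a primary transcript with Mir132, had 7 reads over 12 NAc libraries, 18 over the PFC and 1 over the PAG. Mir7b had 48, 38 and 11 reads, and Mir7-2 had 8, 0 and 0. In the Rian cluster, Mir341 was at 10.2 RPKM in the NAc, 13.1 in the PFC and 6.41 in the PAG and was not called in any region, and neither were Gm23912 and Mir370.

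The genes that make and use miRNAs were tested as a list of 36, of which 34 passed the filter in each region. In the PAG 5 were higher and 6 lower, where 21.5% and 13.7% of all genes were, and the median log2 difference was -0.05 against -0.02 over all genes. The 4 of smallest p were Dcp2, a decapping enzyme, at -0.18 (SE 0.03, limma adjusted p = 2.5e-04), Srrt, which feeds capped transcripts to processing, at 0.33 (SE 0.05, 3.0e-04), Tarbp2, a partner of Dicer, at 0.29 (SE 0.05, 7.8e-04) and Khsrp, which promotes the cutting of let-7 hairpins, at 0.28 (SE 0.05, 0.0016). In the NAc and the PFC 0 of 34 were called, 3 and 0 had an unadjusted limma p under 0.05, and the smallest p belonged to Xrn2 (-0.12, SE 0.05, adjusted p = 0.78) and Ago2 (0.11, SE 0.06, adjusted p = 1.0).

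Genes reported elsewhere as targets of the marker miRNAs moved in both directions in the PAG. Over all genes, 21.5% were called higher there and 13.7% lower. Whether the miRNAs acted on the listed genes was not tested. Of 8 for miR-132, 1 was higher, Foxo3 at 0.14 (SE 0.03, limma adjusted p = 0.0025), and 3 were lower: Kdm5a at -0.19 (SE 0.04, 0.0021), Rasa1 at -0.13 (SE 0.04, 0.0224) and Arhgap32 (p250GAP) at -0.13 (SE 0.05, 0.043). Of 7 for miR-219, Hes5 was higher at 0.63 (SE 0.11, adjusted p = 8.6e-04) and Pdgfra lower at -0.11 (SE 0.04, 0.0454). Among those for miR-7, Irs2 was higher at 0.68 (SE 0.13, limma adjusted p = 0.00116) and Egfr lower at -0.18 (SE 0.06, 0.0301). No target was called in the NAc or the PFC, where Btg2, a miR-132 target and an activity-induced gene, had the smallest p of its list at -0.62 (SE 0.14, limma adjusted p = 0.78) and -0.67 (SE 0.19, adjusted p = 1.0). For miR-219 the smallest p belonged to Pdgfra in the NAc (-0.13, SE 0.05, adjusted p = 0.78) and Camk2g in the PFC (-0.10, SE 0.09, adjusted p = 1.0). Irs2, listed for miR-7, had 0.43 (SE 0.19, limma adjusted p = 0.78) in the NAc.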

How the data were processed

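The authors deposited 1 table of RPKM values that also holds gene lengths. TopHat2, HTSeq and genome build mm10 are named per the submitters' processing notes. Roles, versions, settings and strand: not given in the sources used here. All value columns were used (0 left out). RPKM was multiplied by length and depth to recover reads. SNI and sham were compared on log2(RPKM + 0.5) by limma 3.58.1 with a mean-variance trend, in R 4.3.3, where a gene averaged 0.5 RPKM or more in the 12 libraries of a region, two-sided, with Benjamini-Hochberg adjustment over all genes at 0.05. RPKM is not a count, so the main fit was made on log2 RPKM, and voom on the recovered reads was run as an alternative. The scripts were tested on simulated data. The GC trend was removed by loess (span 0.3). Places, hosts and GC content came from GENCODE M21, whose build GRCm38 is mm10 (97.9% of genes matched), and sequences from RefSeq.

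The members and lists were chosen with earlier results of these data known. Named were the 3 marker genes, members called per region (or the 3 of smallest p), the 10 of highest level, 3 on each side of the limit, 3 per direction and pair of regions of largest difference in level, hosts of these, members sharing a cluster or seed with a marker or called gene, and the list genes of smallest p; 1 result of the miR-7 target list is not reported here. Alternatives were other pseudocounts (0.1 and 1), filters, scalings, weights, GC corrections, voom, 1 model of all regions and leaving out libraries. Intervals cover counting error only.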

Additional observations from a re-analysis of the deposited data

Results flagged for a closer look

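In 156 groups of 6 libraries, 15 values lay far from the rest of their group by Dixon's test at 95%, which chance gives in about 1 of 20 groups. Most of the distance was in mmu-mir-6236, at 296 RPKM in NAc SNI 8 (others at most 50.6), 104 in PFC sham 13 (at most 33.2) and 594 in PFC SNI 21 (at most 67.0). Mirlet7c-2 stood high in NAc SNI 7 at 10.2 RPKM (others at most 7.09) and in PFC SNI 19 at 11.8 (at most 8.48), the libraries of lowest GC slope in their groups. Mir7-1 was also high in PFC SNI 19, at 4.76 RPKM, and Mir186 in NAc SNI 7, at 37.3.

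NAc SNI 11 was high for Mir421 at 33.9 RPKM and for mmu-mir-8103 at 2.70, and PAG SNI 32 for mmu-mir-8103 at 3.40. Gm22175 stood out at 1.28 RPKM in NAc sham 6 and at 0.344, a single read, in PAG sham 28. Gm23572 was at 4.68 in PFC sham 14, mmu-mir-6993 at 2.72 in PAG SNI 31 and mmu-mir-7220 at 5.80 in PAG sham 27.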

How the results depend on the processing

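Few reads limit these results: at 1 RPKM a member of median length had 2.29 to 5.38 reads, and members under 10 reads can be called or lost on a few reads. The number of members was 270 at a limit of 0.5 RPKM, 101 at 2 RPKM and 85 at 10 reads. The 9 members called higher in the PAG became 5 with a filter of 10 reads, 3 with the GC trend removed, 0 with the GC slope as covariate, 16 with array weights, 5 in 1 model of all 36 libraries, and 6 to 13 with 1 library left out. The 2 called lower became 1 with the filter of 10 reads, 4 with quantile scaling, 1 with voom, 4 with the GC trend removed, 0 with the covariate, 4 without sham 28 and SNI 36, and 2 to 4 with 1 library left out. For PAG minus PFC, members called numbered 0 to 6 with 1 library left out. The filter tests fewer genes, and for the other settings the cause was not tested. Of all genes in the PAG, 21.8% were called higher and 14.5% lower by voom. With the GC trend removed it was 7.78% and 5.84%, and with the covariate 0. For the remaining settings the share of all genes is not given here, so those counts are not read as results about the members. Array weights added 8 members to the 11, and quantile scaling 2. With the covariate Mir219-2 had 0.16 (limma adjusted p = 0.931) and Mir132 0.98 (0.659).

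Signs turned for Mir1188 in the PAG with the GC trend removed (-0.017), and among values never called for Mir132 (-0.13) and Mir219-2 (-0.17) in the NAc with the covariate, and for Mir7-1 in the PFC without sham 13 and SNI 19 (-0.017). With 1 library left out, uncalled Mir219-2 in the NAc ran from -0.18 to 0.28, and Mir7-1 from -0.029 to 0.17 in the PFC and -0.026 to 0.19 in the PAG. The 3 alternatives that leave out a library of each group (NAc sham 6 and SNI 7, PFC sham 13 and SNI 19, PAG sham 28 and SNI 36) were chosen after seeing the data. Planned quasi-likelihood count tests were not run, since the deposited unit is RPKM. No paired analysis was possible, since libraries are numbered once each over the whole series. Whether the same mice or pools gave several regions is not known, and the model of all regions treated its libraries as independent.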

Other observations

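Other cell types were read beside the members in the PAG with lists of marker genes, where 21.5% of all genes were higher and 13.7% lower. Of 8 astrocyte genes 3 were higher and 2 lower after SNI, and the angiotensinogen gene Agt had the largest log2 difference at 0.62 (SE 0.07, limma adjusted p = 5.5e-05). Of 6 microglia genes 2 were higher, C1qa at 0.79 (SE 0.12, adjusted p = 2.5e-04) and Tmem119 at 0.59 (SE 0.08, 1.3e-04). The others had 0.11 (Csf1r), -0.02 (Cx3cr1), -0.12 (P2ry12) and -0.12 (Aif1) and were not called. Of 5 neuron genes 2 were higher and 2 lower. Of 3 tested genes of cholinergic neurons 1 was lower, Slc5a7 at -1.36 (SE 0.43, adjusted p = 0.0245), and the summed level of the list was 11.9 to 32.3 RPKM in sham and 4.36 to 21.8 in SNI libraries. None of these lists was called in the NAc or the PFC, where voom called no gene either.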
